A study of Rattus norvegicus with 20 samples.

Results

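Chemokines of the CC and CXC families and their receptors were examined in whole mesenteric artery of 20 rats, on single-colour Agilent rat arrays. The members are the probes whose gene name in the scanner files is Ccl, Cxcl, Ccr or Cxcr followed by digits only. There were 53 such probes for 49 genes among 30367 probes on the array. Measured probes were those that the scanner software marked as well above background on every array of 1 group or more. This left 30 member probes for 28 genes, among 18899 probes of the whole array that met the same rule and were tested.

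The 5 groups held 4 arrays each, and the labels call the arrays of a group biological replicates. SHR were untreated spontaneously hypertensive rats (SHR/Izm), and SHRSP were untreated rats of their stroke-prone substrain (SHRSP/Izm). 2K1C were WKY/Izm rats with a clipped renal artery and both kidneys in place, and 1K1C were WKY/Izm rats with a clipped renal artery and a single kidney. The operated rats were kept for 3 weeks. Untreated WKY/Izm, the normotensive strain, had no operation; all rats were labelled as 6 weeks old. The labels do not settle whether that was the age at operation or at sampling, and neither sham-operated rats nor blood pressure were analysed here. RNA came from the whole artery, so that every cell type of the vessel and of tissue attached to it contributed, and fewer cells of a type and less RNA per cell cannot be told apart.

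Chemokines are small secreted proteins that guide leukocytes along gradients held on glycosaminoglycans of endothelium and matrix. CXC and CC chemokines differ in whether a residue separates the first pair of conserved cysteines, and each family signals through its own G protein-coupled receptors on leukocytes, with some also on endothelium, smooth muscle and fibroblasts. In arteries, chemokines that attract monocytes and T cells are well known from studies of hypertension and of inflammation in the outer vessel layer and in perivascular fat. Inflammatory chemokines are induced by cytokines, while homeostatic ones such as Ccl19, Ccl21, Cxcl12 and Cxcl13 are made steadily by stroma and organise lymphoid tissue.

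A level is the log2 signal of a probe relative to the 75th percentile of its array, so that 0 is that percentile, and a difference is the first named group minus the second on the same log2 scale. Differences are given with their SE, and group means with their SD over 4 arrays. A probe is called where limma's two-sided test, fitted to all 20 arrays and adjusted by Benjamini-Hochberg over the 18899 probes, gave an adjusted p under 0.05. The arrays lay on 3 slides: 2K1C on slide 1, 1K1C and untreated WKY on slide 2, SHR and SHRSP on slide 3. For SHR, SHRSP and 2K1C against untreated WKY and for 1K1C against 2K1C, group and slide cannot be told apart. The 4 comparisons with untreated WKY share the same 4 control arrays.

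The tissue label was checked against its markers. All 8 smooth muscle markers and all 10 blood endothelial markers were measured, and the mean level of the smooth muscle list was 2.54 to 4.59 in SHR, 3.45 to 4.57 in SHRSP, 3.13 to 4.7 in 2K1C, 0.65 to 3.65 in 1K1C and 3.12 to 4.12 in untreated WKY. The lowest of these was 1K1C replicate 2. Several arrays stood apart. SHRSP replicate 4 and 2K1C replicate 4 had mean B cell and plasma cell marker levels of 0.42 and 1.66, while the other 18 arrays lay between -4.23 and -1. Untreated WKY replicate 1 had the highest nerve markers, 3.97, and the highest brown adipocyte markers, 3.18. Several member results are therefore also given without these arrays, a choice made after seeing the data.

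Of the 53 member probes 30 passed the rule, beside 18899 of 30367 on the whole array. Among CC chemokines 14 of 20 genes passed the rule, among CXC chemokines 7 of 12, among CC receptors 4 of 10 and among CXC receptors 3 of 7. Of the 30 probes, 23 were well above background on all 20 arrays. The other 7 were those of Ccl12, Ccl17, Ccl3, Ccl9, Ccr1, Ccr6 and Cxcl13. Ccr6 passed only through 1K1C, with 3, 3, 2, 4 and 2 arrays above background in SHR, SHRSP, 2K1C, 1K1C and untreated WKY. Since a probe can pass through the group in which it is bright, the counts below describe the probes measured and not the family.

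The 23 probes that did not pass were well above background on few arrays. Those above background on no array were the eosinophil and mucosal chemokines Ccl25, Ccl26 and Ccl28, the receptors Ccr3, Ccr4, Ccr8 and Cxcr1, the CXCR3 ligand Cxcl11, the neutrophil chemokine Cxcl5 (Cxcl6 in the current RefSeq table) and 1 of 2 Cxcl3 probes. The other 13 were above background on some arrays: Ccl1, Ccl20 with both probes, Ccl4, Ccr10, Ccr2, Ccr7, Cxcl17, Cxcl2, the second Cxcl3 probe, Cxcr3, Cxcr5 and Cxcr6. Ccr2, the main receptor for monocyte chemokines, was above background on 2, 2, 1, 2 and 2 arrays of SHR, SHRSP, 2K1C, 1K1C and untreated WKY. SHRSP replicate 4 and 2K1C replicate 4 had 10 and 12 of these 23 probes above background, and each other array had 0 to 4.

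**Figure D1:**
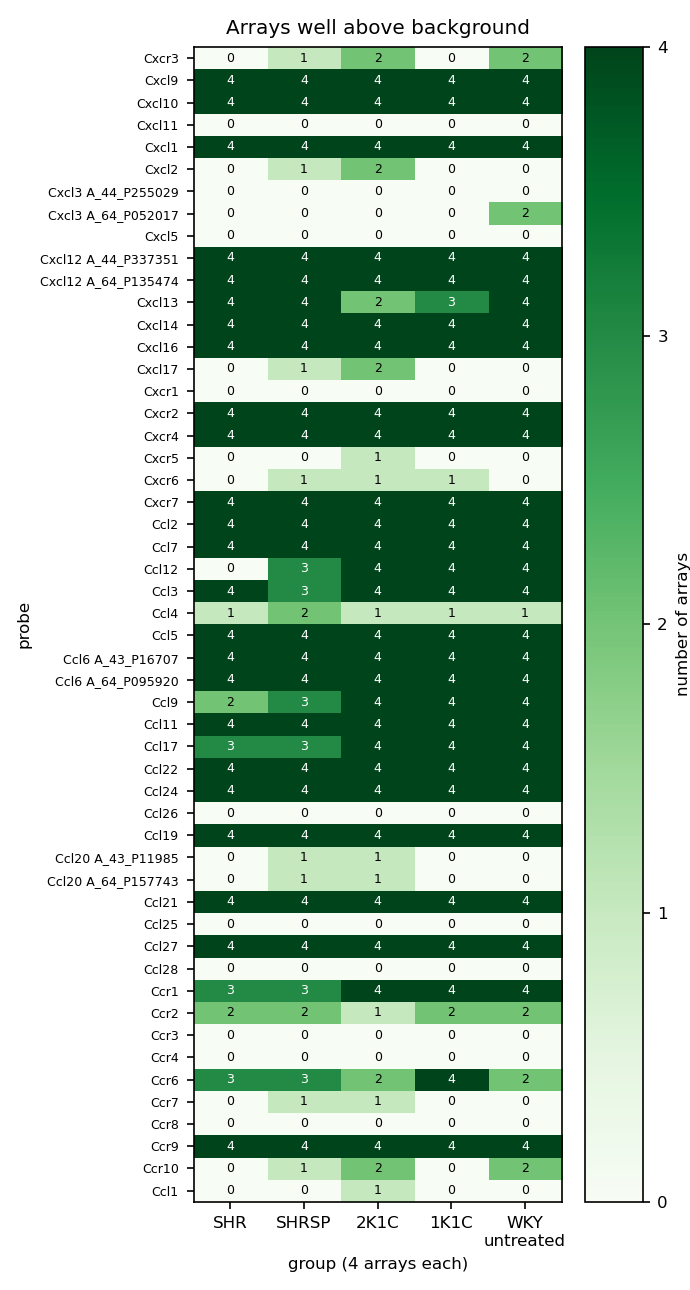
Number of arrays, of 4 in each group (columns), on which each of 52 of the 53 probes (rows, ordered by role) was well above background. Ccl12 is at 0 in SHR and at 4 in untreated WKY, and 10 probes are at 0 in every group.

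Over the 5 groups, the moderated F test of limma called 3 of the 30 probes, those of Cxcl9, Ccl12 and Cxcl14, beside 3.12% of all probes tested. The adjusted p was 0.0017 for Cxcl9, 0.0134 for Ccl12 and 0.0182 for Cxcl14. The F test lost Ccl12 without SHR replicate 2 or 3 (adjusted p = 0.0633 and 0.0588) and with normexp background correction and quantile normalization together (adjusted p = 0.0864). The gene with the next lowest value was Ccl11, with an adjusted p of 0.0512. The members varied more within groups than most probes: their pooled SD had a median of 0.70, against 0.31 over all probes, and ranged from 0.19 for Ccl24 to 2.36 for Cxcl13. Ccr6 (SD 2.16) and Ccl17 (SD 1.62) also varied widely within groups, and Cxcl9 (SD 0.38), Ccl7 (SD 0.33) and Ccl27 (SD 0.22) little.

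**Figure D2:**
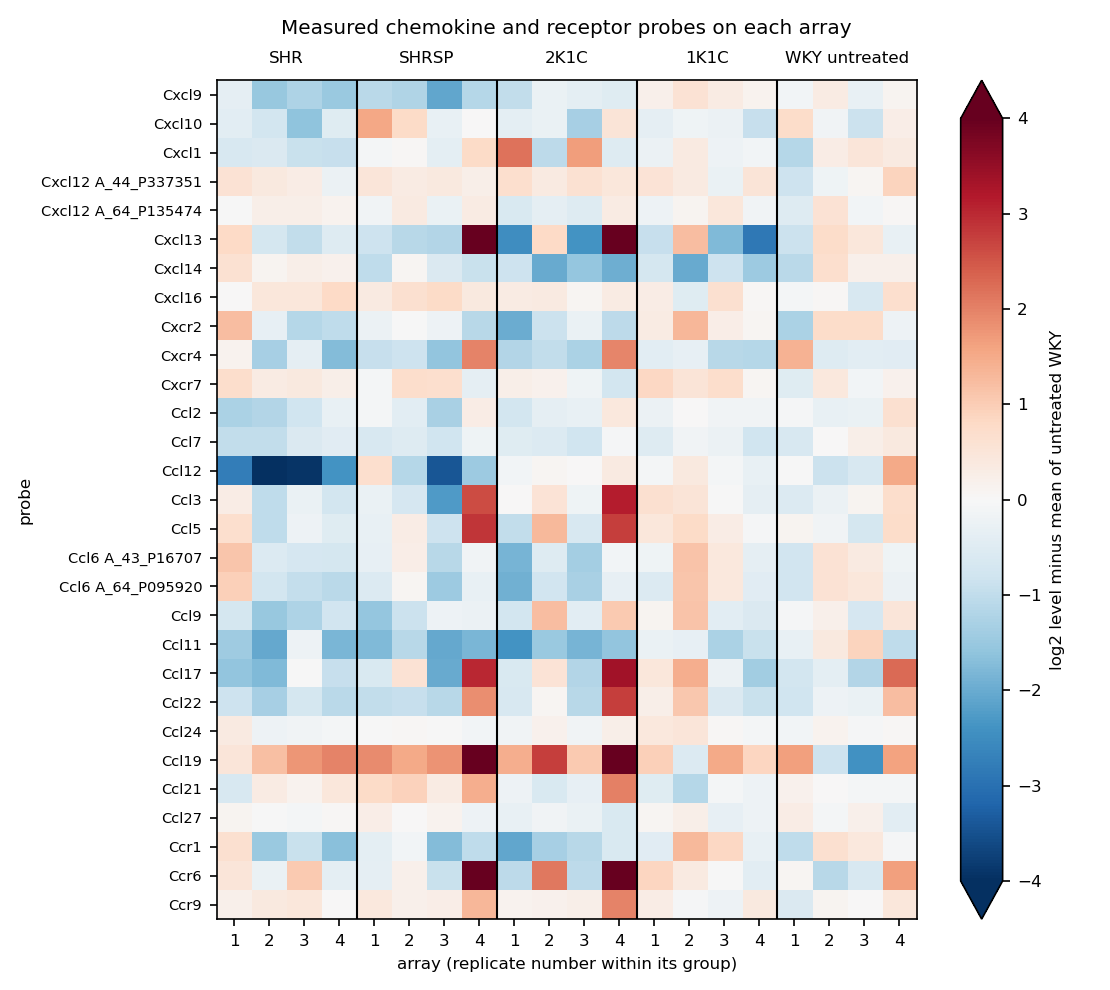
Log2 level of 29 of the 30 measured probes (rows) on each of the 20 arrays (columns, grouped), minus the mean of the 4 untreated WKY arrays, with colours ending at differences of 4 in either direction. Cxcl9 is blue on the SHR and SHRSP arrays, Ccl12 is darkest in SHR, and SHRSP replicate 4 and 2K1C replicate 4 are red for Cxcl13, Ccl19, Ccr6, Ccl17 and Ccl22.

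The CXCR3 ligands attract activated T cells and NK cells and are induced by interferon gamma. Cxcl9 fell in both hypertensive strains. Its levels were -1.77, -2.92, -2.64 and -2.90 on the SHR arrays and -2.47, -2.61, -3.48 and -2.55 on the SHRSP arrays, against -1.52, -1.09, -1.71 and -1.29 in untreated WKY. Every SHR and SHRSP array lay below every untreated WKY array, although the highest SHR array (-1.77) lay close to the lowest untreated WKY array (-1.71). Cxcl9 was 2.23-fold lower in SHR than in untreated WKY (difference -1.16 ± 0.26, limma adjusted p = 0.0304) and 2.59-fold lower in SHRSP (difference -1.38 ± 0.26, limma adjusted p = 0.00718). The SHR call was lost without SHR replicates 2, 3 or 4 or untreated WKY replicate 2 (adjusted p 0.0917 to 0.11), and with SHRSP replicate 4, 2K1C replicate 4 and untreated WKY replicate 1 all left out (adjusted p = 0.0606). It was also lost with the values unscaled (adjusted p = 0.135) and with only the 2 groups compared in the fit (adjusted p = 0.169). The SHRSP call held without each single array (adjusted p 0.0111 to 0.0333), and SHRSP replicate 4 and 2K1C replicate 4 left out together gave a difference of -1.45 and an adjusted p of 0.0174. It was lost with the values unscaled (adjusted p = 0.0861) and with only the 2 groups compared (adjusted p = 0.052).

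In the clipped groups Cxcl9 was at -2.40, -1.68, -1.79 and -1.89 on the 2K1C arrays and at -1.19, -0.83, -1.07 and -1.25 on the 1K1C arrays. 2K1C overlapped untreated WKY through its replicate 2 and 1K1C overlapped untreated WKY too. The differences from untreated WKY were -0.54 ± 0.26 in 2K1C and 0.32 ± 0.26 in 1K1C, neither called (limma adjusted p = 0.233 and 0.699). All 1K1C arrays lay above all 2K1C arrays (difference 0.86 ± 0.26, limma adjusted p = 0.0865). SHRSP and SHR did not differ by more than their spread (difference -0.22 ± 0.26, limma adjusted p = 1).

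Cxcl10, whose gene lies beside Cxcl9 and whose product binds the same receptor, had another pattern. Its levels were -3.75, -4.06, -4.96 and -3.84 in SHR, -1.79, -2.57, -3.65 and -3.33 in SHRSP, -3.73, -3.61, -4.68 and -2.82 in 2K1C, -3.69, -3.50, -3.56 and -4.26 in 1K1C and -2.62, -3.47, -4.21 and -3.06 in untreated WKY. SHRSP lay above SHR on every array (difference 1.32 ± 0.43), which limma did not call (adjusted p = 0.646). Against untreated WKY the differences were -0.81 ± 0.43 in SHR and 0.50 ± 0.43 in SHRSP, with overlapping groups. Cxcr3, their receptor, was above background on 0, 1, 2, 0 and 2 arrays of SHR, SHRSP, 2K1C, 1K1C and untreated WKY.

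The probe of Cxcl9 lies at chr14:17288831-17288890 of rn4, the build of the array design, that of Cxcl10 at chr14:17267994-17268053 and that of Cxcl11 at chr14:17252192-17252251. The first 30 of the 60 bases of the Cxcl9 probe are shown because this probe carried the call in both strains. Its longest run shared with a probe of any of the other 48 member genes was 9 bases, with Ccl17. Cxcl9 had a single probe, so RNA level and a strain difference in the sequence under the probe cannot be told apart. The promoters of both genes are shown because these neighbouring genes encode ligands of CXCR3, and Cxcl9 was called while Cxcl10 was not. They are the 250 bases before the RefSeq start on GRCr8, at chr14:16006916-16007165 for Cxcl9 and chr14:15988816-15989065 for Cxcl10, both on the plus strand. Capitals mark matches on either strand to 5 motifs. The NF-kB type motif reads GGGA, any 2 bases, T, any base and CC, and the interferon-stimulated response element type reads GAAA, any 2 bases and GAAA again. The STAT type reads TTCNNNGAA, the AP-1 type used here reads TGANTCA, where N is any base, and the TATA box was searched as TATAAA.
Cxcl9 probe: aagagggggaaaaaccatcaaaggagcaag
Cxcl9 promoter: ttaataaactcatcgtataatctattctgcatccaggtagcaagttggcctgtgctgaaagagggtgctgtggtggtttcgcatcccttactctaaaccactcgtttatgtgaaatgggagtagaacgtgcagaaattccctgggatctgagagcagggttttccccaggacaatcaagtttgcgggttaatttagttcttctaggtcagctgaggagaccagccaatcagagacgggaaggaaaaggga
Cxcl10 promoter: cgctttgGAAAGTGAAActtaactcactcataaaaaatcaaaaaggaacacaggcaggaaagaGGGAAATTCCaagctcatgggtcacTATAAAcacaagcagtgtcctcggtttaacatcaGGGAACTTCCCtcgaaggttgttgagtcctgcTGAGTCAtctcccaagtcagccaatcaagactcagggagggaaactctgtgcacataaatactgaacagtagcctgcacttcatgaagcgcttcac

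The Cxcl10 window held an interferon element type match that began 243 bases before the start and 3 NF-kB type matches at 187, 128 and 127 bases, of which the last 2 overlap on opposite strands. It also held a TATA box match at 162 bases and an AP-1 type match at 96 bases. The Cxcl9 window held none of these letters, which says nothing about the factors themselves. Over 33469 RefSeq promoters of the same length, the NF-kB type motif was found in 3.3%, the interferon element type in 3.41%, the STAT type in 7.67%, the AP-1 type in 6.34% and the TATA box in 12.9%. Promoters of 22 of the 28 measured genes were in the table. Among them the NF-kB type was found in 3, the interferon element type in 2, the STAT type in 3, the AP-1 type in 3 and the TATA box in 9. A match is a description of the sequence and not a binding site.

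**Figure D3:**
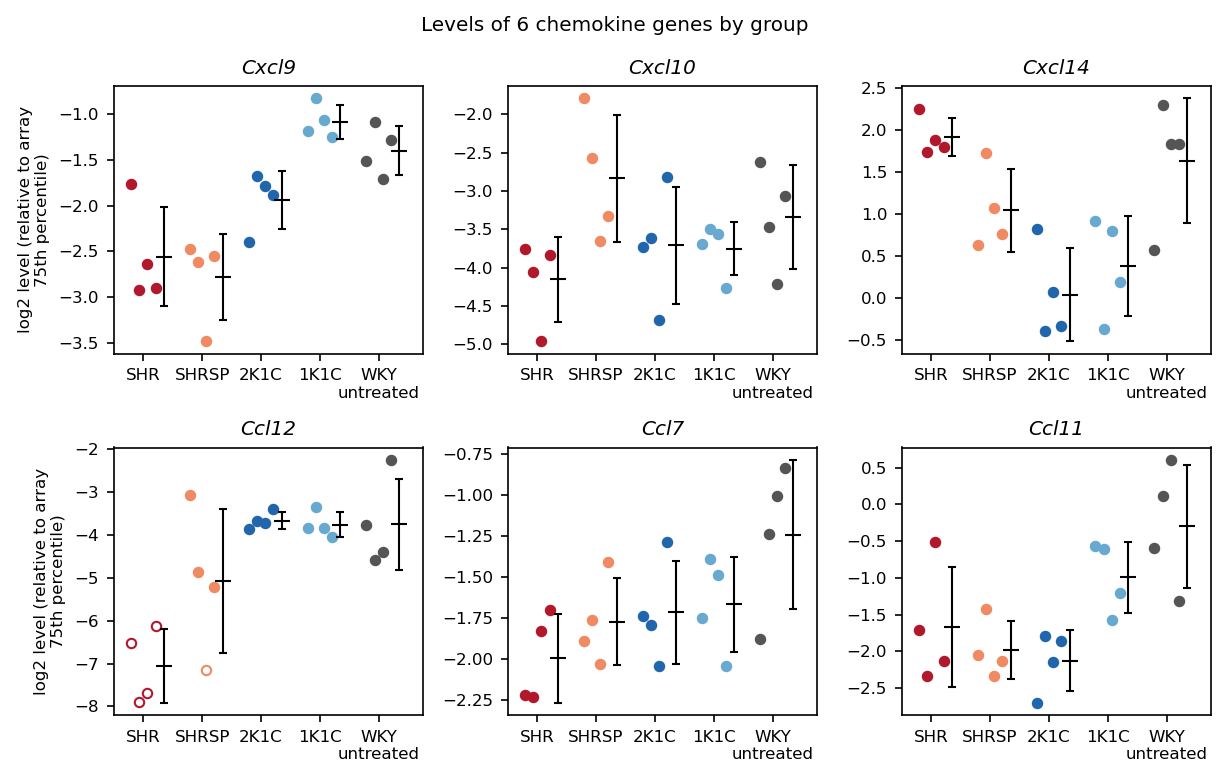
Log2 level of 6 chemokine genes on each array by group (points, open where the probe was not well above background), with the mean and SD of each group to the right of its points. Cxcl9 is lower in SHR and SHRSP than in untreated WKY, all 4 SHR points of Ccl12 are open, Ccl11 lies low in SHRSP and 2K1C, and Cxcl14 lies low in 2K1C and 1K1C.

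The monocyte chemokines Ccl2, Ccl7 and Ccl12 act through CCR2, which brings monocytes out of the marrow and into tissue; the role of Ccl12 is known mainly from the mouse. Ccl12 fell in SHR. Its levels were -6.51, -7.89, -7.68 and -6.12 in SHR, where no array was well above background, against -3.76, -4.59, -4.39 and -2.24 in untreated WKY, where all were. The groups did not overlap, and the signal was at least 4.71-fold lower in SHR than in untreated WKY. That bound sets the mean of untreated WKY against the mean, over the SHR arrays, of the lowest signal detected on the array or the probe's own signal where higher. The fitted difference was -3.31 ± 0.65 (limma adjusted p = 0.0115). The call was lost without SHR replicates 2 or 3 (adjusted p 0.0518 and 0.0508) with normexp background correction and quantile normalization together (difference -0.91, adjusted p = 0.0691) and with only the 2 groups compared (adjusted p = 0.0606), and it held with no filter on dim probes (adjusted p = 0.0167).

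In SHRSP, Ccl12 was spread widely at -3.06, -4.87, -7.16 and -5.21, with replicate 3 not above background, and it overlapped untreated WKY (difference -1.33 ± 0.65, limma adjusted p = 0.31). The mean was -5.07 ± 1.68 in SHRSP against -7.05 ± 0.87 in SHR, a difference that limma did not call (adjusted p = 0.613). SHRSP replicate 3 lay within the SHR range. No fold is given here, because that array and all SHR arrays were not above background. The 2K1C arrays, at -3.86, -3.67, -3.73 and -3.40, and the 1K1C arrays, at -3.83, -3.34, -3.83 and -4.04, lay within the range of untreated WKY. The differences there were 0.08 ± 0.65 and -0.01 ± 0.65.

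Ccl2 and Ccl7 had lower means in SHR than in untreated WKY without passing the test. Ccl2, the main monocyte chemokine, was at -0.77, -0.68, -0.31 and 0.20 in SHR, against 0.43, 0.18, 0.23 and 1.12 in untreated WKY (difference -0.88 ± 0.31, limma adjusted p = 0.187). Ccl7 was at -2.22, -2.23, -1.83 and -1.70 in SHR, against -1.88, -1.24, -1.01 and -0.84 in untreated WKY (difference -0.75 ± 0.23, limma adjusted p = 0.106). In each gene 1 array made the groups overlap, SHR replicate 4 for Ccl2 and untreated WKY replicate 1 for Ccl7. Without untreated WKY replicate 1, Ccl7 was called in SHR. In SHRSP the differences were -0.37 ± 0.31 for Ccl2 and -0.53 ± 0.23 for Ccl7, both uncalled. With SHRSP replicate 4, 2K1C replicate 4 and untreated WKY replicate 1 left out, Ccl7 was called in SHR and in SHRSP. In that setting 326 and 381 of all probes were called. Of 12 measured macrophage and monocyte markers 11 were lower in SHR than in untreated WKY, with a median of -0.23 and 0 called, and their part in the monocyte chemokine values was not tested.

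The probes of Ccl2, Ccl7, Ccl11 and Ccl12 lie in 1 cluster on rn4, from chr10:70257919-70257978 for Ccl2 through chr10:70268674-70268733 for Ccl7 and chr10:70283679-70283738 for Ccl11 to chr10:70322447-70322506 for Ccl12. The Ccl12 probe and promoter are shown because this probe was not above background in SHR, and the Ccl11 probe because it was called in SHRSP. The Ccl12 promoter lies at chr10:67567626-67567875 of GRCr8 on the plus strand, with its only motif match, a TATA box, in capitals 41 bases before the start. The longest run shared with a probe of another member gene was 9 bases for the Ccl12 probe and 8 for the Ccl11 probe. Each gene had a single probe, so RNA level and a strain difference in the sequence under the probe cannot be told apart.
Ccl12 probe: ccttccccatggacagtgcgatagttattt
Ccl12 promoter: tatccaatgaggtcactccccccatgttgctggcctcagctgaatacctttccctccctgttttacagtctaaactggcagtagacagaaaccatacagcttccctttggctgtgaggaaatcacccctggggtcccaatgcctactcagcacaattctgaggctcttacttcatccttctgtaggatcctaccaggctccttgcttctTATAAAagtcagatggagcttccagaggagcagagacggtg
Ccl11 probe: ctttaacgtgccatcatgccaagccagaat

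Ccl11, or eotaxin, draws eosinophils through CCR3 and is made by fibroblasts and smooth muscle. It fell in SHRSP, with levels of -2.05, -1.42, -2.33 and -2.13 in SHRSP against -0.59, 0.11, 0.61 and -1.31 in untreated WKY. All SHRSP arrays lay below all untreated WKY arrays, and the signal was 3.22-fold lower (difference -1.69 ± 0.41, limma adjusted p = 0.0364). The call ended when any 1 of SHRSP replicates 1, 3 and 4 or of untreated WKY replicates 1, 2 and 3 was removed (adjusted p 0.0533 to 0.145). It also ended with the values unscaled (adjusted p = 0.0705), with no filter on dim probes (adjusted p = 0.0539), with only the 2 groups compared (adjusted p = 0.103) and without SHRSP replicate 4 and 2K1C replicate 4 together (adjusted p = 0.0882). Nor was Ccl11 called in SHRSP with untreated WKY replicate 1 left out as well as those arrays. In SHR the levels were -1.71, -2.34, -0.51 and -2.13, and replicate 3 lay within the range of untreated WKY (difference -1.38 ± 0.41, limma adjusted p = 0.104). SHRSP and SHR differed by -0.31 ± 0.41 (limma adjusted p = 1). Without SHR replicate 3, the only member called in SHR against untreated WKY was Ccl11.

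2K1C held the lowest Ccl11 mean of the 5 groups. Its levels there were -2.70, -1.79, -2.15 and -1.86, all below untreated WKY (difference -1.83 ± 0.41, limma adjusted p = 0.0964). Without 2K1C replicate 3 the adjusted p was 0.049, and without untreated WKY replicate 4 it was 0.0125. 1K1C lay at -0.57, -0.61, -1.57 and -1.20, above every 2K1C array (difference 1.14 ± 0.41, limma adjusted p = 0.129). Of 10 measured mast cell and eosinophil markers 9 were lower in SHR, 9 in SHRSP and 9 in 2K1C than in untreated WKY, with medians of -1.35, -1.12 and -0.70, and 9 were higher in 1K1C, with a median of 0.34; 0 were called. The mean level of that list was -4.92 to -3.19 in SHR, -5.31 to -3.52 in SHRSP, -4.81 to -2.56 in 2K1C, -3.68 to -2.26 in 1K1C and -3.90 to -2.77 in untreated WKY. Most genes of the list are mast cell genes, and the eosinophil gene Prg2 was the marker that was higher in SHR, SHRSP and 2K1C. Prg2 had means of -5.22 in SHR, -4.39 in SHRSP and -3.71 in 2K1C, against -5.64 in untreated WKY. It was above background on 3, 1, 4 and 1 arrays of these groups. Epx, also of eosinophils, did not pass the detection rule. The part of these cells in the Ccl11 values was not tested.

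Among the other type 2 chemokines, Ccl24, a second eotaxin, was the least variable member, with means of 2.98 ± 0.25 in SHR, 2.97 ± 0.07 in SHRSP, 3.02 ± 0.20 in 2K1C, 3.22 ± 0.27 in 1K1C and 2.99 ± 0.11 in untreated WKY. Ccl17 and Ccl22, both CCR4 ligands that attract type 2 and regulatory T cells, varied mainly between single arrays. Ccl22 was at -1.64 on SHRSP replicate 4 and -0.74 on 2K1C replicate 4, and at -4.83 to -2.25 on the other 18 arrays. Ccl17 was at -0.83 and -0.47 on those 2 arrays and at -5.87 to -1.56 on the other 18, the highest of which was untreated WKY replicate 4.

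Cxcl14 is a homeostatic CXC chemokine of epithelium and stroma whose receptor is not settled. The F test called it, but no single comparison did. Its levels were 2.25, 1.74, 1.88 and 1.80 in SHR, 0.63, 1.73, 1.07 and 0.76 in SHRSP, 0.82, -0.39, 0.08 and -0.33 in 2K1C, 0.92, -0.37, 0.80 and 0.19 in 1K1C and 0.57, 2.30, 1.84 and 1.84 in untreated WKY. Both clipped groups lay below 3 of the 4 untreated WKY arrays and overlapped it through replicate 1, which stood apart in other ways. The signal was 3.02-fold lower in 2K1C (difference -1.59 ± 0.37, limma adjusted p = 0.0964) and 2.38-fold lower in 1K1C (difference -1.25 ± 0.37, limma adjusted p = 0.25). The 1K1C comparison lay within 1 slide. With SHRSP replicate 4, 2K1C replicate 4 and untreated WKY replicate 1 left out, these differences were -1.82 and -1.61 (adjusted p = 0.138 and 0.18).

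Between the strains, all 4 SHRSP arrays of Cxcl14 lay below all 4 SHR arrays (difference -0.86 ± 0.37, limma adjusted p = 1). The F test lost Cxcl14 without 2K1C replicate 2 (adjusted p = 0.0503), and also without SHRSP replicate 4 and 2K1C replicate 4 together (adjusted p = 0.0542). Its probe lies at chr17:14295398-14295457 of rn4 and its promoter at chr17:8322900-8323149 of GRCr8, plus strand, where capitals mark the only motif match, an AP-1 type at 99 bases before the start. Both are shown because the F test called this gene over the 5 groups.
Cxcl14 probe: gaatctgctatgtaagtgctgagattcatg
Cxcl14 promoter: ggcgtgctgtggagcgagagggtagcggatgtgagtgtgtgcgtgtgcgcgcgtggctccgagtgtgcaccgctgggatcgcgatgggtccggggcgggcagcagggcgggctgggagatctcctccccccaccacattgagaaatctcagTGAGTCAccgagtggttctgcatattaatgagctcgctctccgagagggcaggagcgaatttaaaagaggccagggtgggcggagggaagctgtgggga

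Counted over the 30 probes, 2 were called in SHR against untreated WKY, Cxcl9 and Ccl12, both lower, beside 1.72% of all probes. In SHRSP 2 were called, Cxcl9 and Ccl11, both lower, beside 2.40% of all probes. In SHR 19 of 30 probes were lower and the median difference was -0.33, against 0.02 over all probes; in SHRSP 15 were lower and the median was 0.01, against 0. With single arrays left out the SHR median ran from -0.67 (without SHR replicate 1) to -0.21 (without SHR replicate 3 or untreated WKY replicate 2), and it was -0.52 without untreated WKY replicate 1. Groups did not overlap for 3 probes in SHR (Cxcl9, Ccl12 and Ccl9), beside 6.16% of all probes, and for 3 in SHRSP (Cxcl9, Ccl11 and Ccl21), beside 11.4%. At an unadjusted p under 0.05 there were 6 in SHR (13.9% of all probes) and 5 in SHRSP (16.8%). Without SHRSP replicate 4 and 2K1C replicate 4 the count in SHRSP was 1, Cxcl9, and the median there moved to -0.37. With only the 2 groups compared in the fit, limma called 0 members in either strain, and with array weights it called 13 in SHR and 10 in SHRSP, beside 8521 and 6184 of all probes tested.

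Neither clipped group had a called member against untreated WKY: limma called 0 of the 30 probes in each, beside 0.0106% and 0% of all probes. At an unadjusted p under 0.05 there were 5 in 2K1C (21.9% of all probes) and 1 in 1K1C (9.03%), and with array weights limma called 9 and 1, beside 5326 and 567 of all probes. The groups did not overlap for 1 probe in 2K1C, Ccl11 (7.91% of all probes), and for 0 in 1K1C (3.75% of all probes). The median differences were -0.05 in 2K1C and 0.07 in 1K1C, against 0.04 and 0.10 over all probes. Without the 2 arrays rich in B cell markers the 2K1C median was -0.44.

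SHRSP against SHR, within 1 slide, gave 0 called members beside 0.360% of all probes, with 3 at an unadjusted p under 0.05 (3.61% of all probes) and 3 called by limma with array weights, beside 969 of all probes. Each group had its own row of that slide. Of the 30 probes 21 were higher in SHRSP, the median was 0.25 against -0.01 over all probes, and it was 0.03 without SHRSP replicate 4 and 2K1C replicate 4. Groups did not overlap for 3 probes, Cxcl10 and Cxcl1 higher and Cxcl14 lower, beside 3.49% of all probes. Cxcl1, a neutrophil chemokine that acts through CXCR2, was at -3.49, -3.36, -3.80 and -2.66 in SHRSP against -4.04, -3.99, -4.30 and -4.32 in SHR (difference 0.83 ± 0.55, limma adjusted p = 1).

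**Figure D4:**
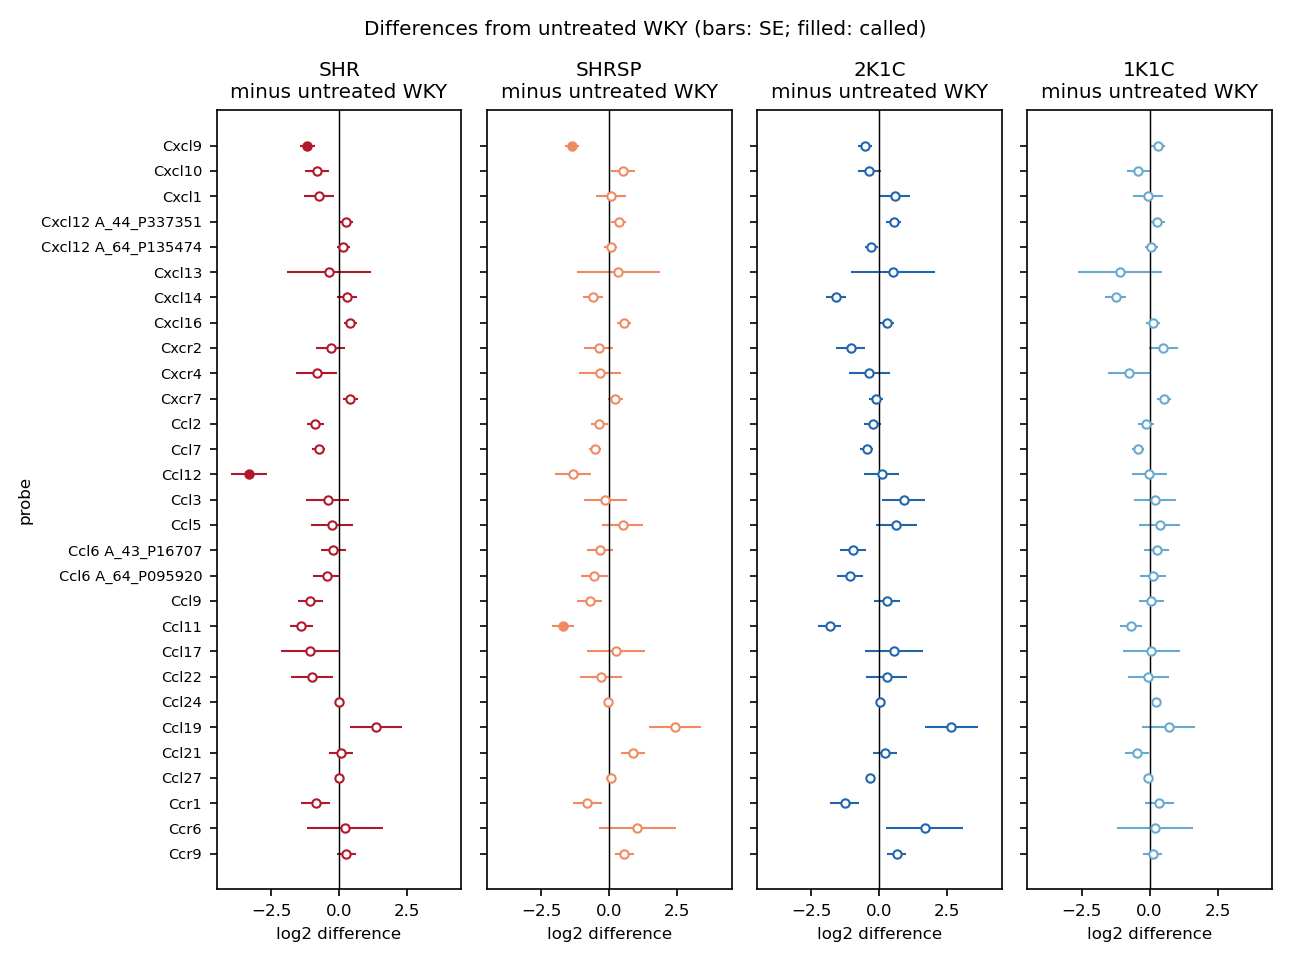
Log2 difference of 29 of the 30 measured probes (rows) from untreated WKY in SHR, SHRSP, 2K1C and 1K1C (panels), with SE as bars and called probes filled. The 4 filled points are Cxcl9 and Ccl12 in SHR and Cxcl9 and Ccl11 in SHRSP, all below 0.

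The 2 operations were compared directly. Limma called 0 members between 1K1C and 2K1C, beside 0% of all probes, with 7 at an unadjusted p under 0.05 (21.1% of all probes) and 0 with array weights. The groups did not overlap for 4 probes, all higher in 1K1C, Ccl11, Cxcl9, Ccr1 and Cxcr2, beside 9.55% of all probes. Ccr1, a receptor of monocytes and neutrophils for Ccl3, Ccl5 and related ligands, was at -3.83, -2.07, -2.56 and -3.66 in 1K1C against -5.45, -4.72, -4.49 and -3.99 in 2K1C (difference 1.63 ± 0.53, limma adjusted p = 0.101). It was called without 1K1C replicate 4 (difference 1.84), a setting in which 2030 of all probes were called. Cxcr2, the neutrophil receptor for Cxcl1, was at -1.74, -0.74, -1.82 and -1.99 in 1K1C against -4.08, -2.94, -2.36 and -3.13 in 2K1C (difference 1.55 ± 0.53, limma adjusted p = 0.112).

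For both receptors, 1K1C replicate 2 was the highest of its group, as it was for 19 of the 30 members, against 29.6% of all probes. Other arrays were often extreme within their groups too. 2K1C replicate 4 was highest for 20 of the 30 (31.7% of all probes) and SHR replicate 1 for 17 (35.5%). SHRSP replicate 3 was lowest for 20 (22.3% of all probes). 1K1C replicate 4 and untreated WKY replicate 1 were lowest for 16 each (36.6% and 37.6%). Both Ccl6 probes, of a chemokine that in the mouse acts through CCR1, were 1.22 ± 0.47 and 1.21 ± 0.49 higher in 1K1C than in 2K1C, with overlapping groups. Macrophage and monocyte markers were higher in 1K1C than in 2K1C for 11 of 12 (median 0.59, 0 called), and their mean level was 0.11 to 1.37 in 1K1C against -0.94 to 1.12 in 2K1C. The neutrophil markers were higher in 1K1C for 2 of 5 measured, with a median of -0.18. The part of these cells in the receptor values was not tested.

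No lymphoid chemokine was called, and SHRSP replicate 4 and 2K1C replicate 4 held the highest levels of Ccl19 and Cxcl13. Ccl19 and Ccl21 bring T cells and dendritic cells to lymph nodes through CCR7, and Cxcl13 gathers B cells through CXCR5. Ccl19 was at -0.23, 0.49, 1.07 and 1.27 in SHR, 1.17, 0.81, 1.10 and 3.80 in SHRSP, 0.73, 2.04, 0.35 and 4.63 in 2K1C, 0.23, -1.25, 0.82 and 0.15 in 1K1C and 0.92, -1.54, -3.13 and 0.91 in untreated WKY. Its differences from untreated WKY were 1.36 ± 0.96 in SHR, 2.43 ± 0.96 in SHRSP, 2.65 ± 0.96 in 2K1C and 0.70 ± 0.96 in 1K1C, none called by limma (adjusted p = 0.575, 0.211, 0.151 and 0.813). Every one of these comparisons had overlapping groups, with untreated WKY itself spread from -3.13 to 0.92. Against each other, SHRSP was 1.07 ± 0.96 above SHR and 1K1C was 1.95 below 2K1C (difference -1.95 ± 0.96), both uncalled (limma adjusted p = 1 and 0.255). Without SHRSP replicate 4 and 2K1C replicate 4 the differences from untreated WKY were 1.74 in SHRSP and 1.75 in 2K1C, and that of 1K1C from 2K1C was -1.05.

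Cxcl13 was at -4.57, -4.83, -4.91 and 0.73 in SHRSP and at -6.21, -2.94, -6.12 and 2.37 in 2K1C, against -4.61, -3.00, -3.29 and -4.04 in untreated WKY. Ccr6, a receptor of B cells, T cells and dendritic cells for Ccl20, was at -5.18, -4.62, -5.73 and 0.33 in SHRSP and -5.87, -2.71, -5.89 and 1.84 in 2K1C, against -4.75, -5.93, -5.46 and -3.19 in untreated WKY. Replicate 4 was the highest array in SHRSP and in 2K1C for both genes. Ccl20 and Ccr7 were above background on these 2 arrays and on no others. In 1K1C, Cxcl13 was at -4.66, -2.51, -5.49 and -6.59, with the last not above background, and its difference from untreated WKY was -1.08 ± 1.54 (limma adjusted p = 0.824). Ccl21 lay higher in SHRSP, at 3.53, 3.70, 3.1 and 4.23 against 2.93, 2.80, 2.68 and 2.68 in untreated WKY, without overlap but not called (difference 0.87 ± 0.44, limma adjusted p = 0.327). That difference was 0.67 without SHRSP replicate 4 and 2K1C replicate 4. Between the clipped groups Ccl21 differed by -0.70 ± 0.44 (1K1C minus 2K1C, limma adjusted p = 0.368) with every array, and by -0.10 without 2K1C replicate 4 and SHRSP replicate 4.

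Ccl5 and Ccl3, CCR1 ligands made by T cells and macrophages, were highest on the same 2 arrays. Ccl5 was at 1.39 on SHRSP replicate 4 and 1.30 on 2K1C replicate 4, and at -2.50 to -0.17 on the other 18 arrays. Ccl3 was at -1.11 and -0.57 on those 2 arrays and at -5.96 to -3.02 on the other 18. Its difference from untreated WKY in 2K1C was 0.89 ± 0.79 (limma adjusted p = 0.504), and without SHRSP replicate 4, 2K1C replicate 4 and untreated WKY replicate 1 it was -0.05. The mean level of the 8 measured T and NK cell markers was -0.43 on SHRSP replicate 4 and 0.20 on 2K1C replicate 4, against -5.08 to -2.52 on the other 18 arrays. Of the 12 B cell markers 4 were measured, and of the 16 T and NK cell markers 8, and Ms4a1, Cd79a, Cd3e and Cd8a were among those that did not pass the rule. The part of lymphocytes in these values was not tested.

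**Figure D5:**
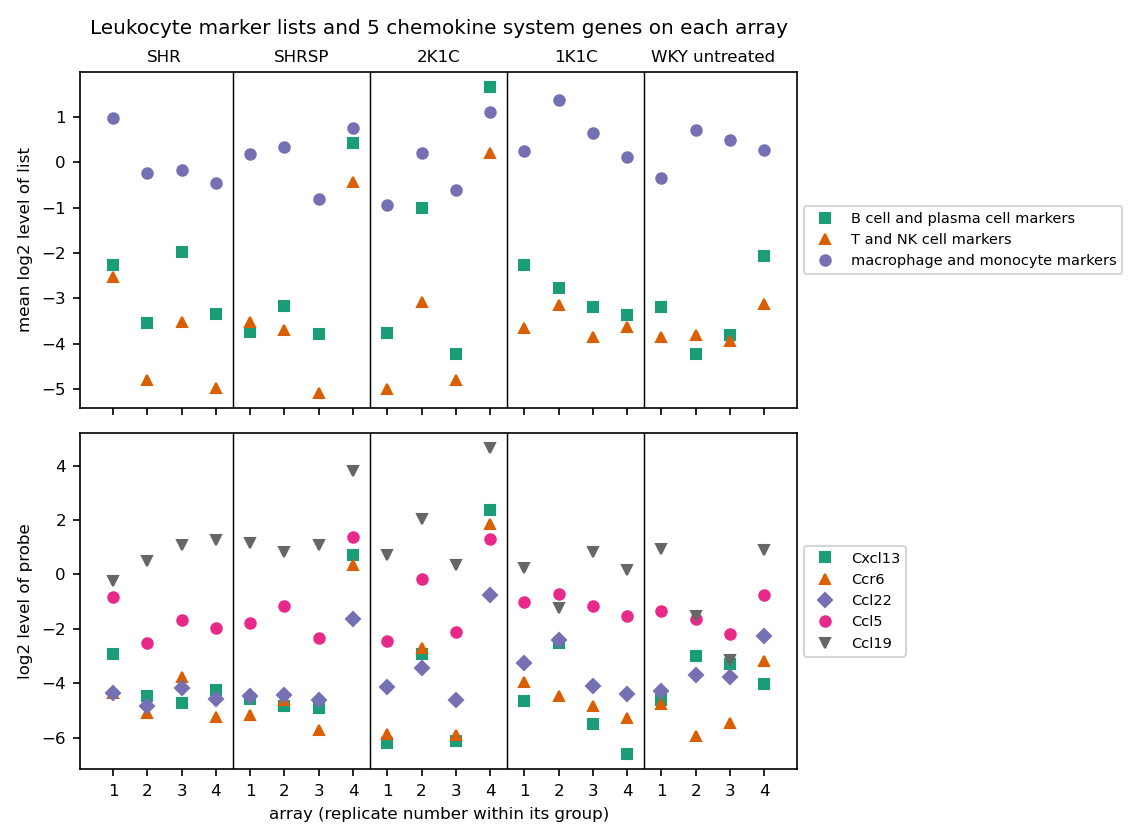
Mean log2 level of 3 leukocyte marker lists (top) and log2 level of 5 chemokine system probes (bottom) on each of the 20 arrays, ordered by group. On SHRSP replicate 4 and 2K1C replicate 4 the B cell markers reach 0.42 and 1.66, and Cxcl13 reaches 0.73 and 2.37.

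Cxcl12, which holds leukocytes and progenitors through CXCR4, was well above background on all 20 arrays with both of its probes. The means of probe A_44_P337351 were 2.11 ± 0.35 in SHR, 2.21 ± 0.11 in SHRSP, 2.37 ± 0.15 in 2K1C, 2.14 ± 0.39 in 1K1C and 1.86 ± 0.71 in untreated WKY. The probes disagreed in sign in 2K1C against untreated WKY, at 0.52 and -0.29, in SHRSP against SHR, at 0.09 and -0.08, and in 1K1C against 2K1C, at -0.23 and 0.34, none called. They lie apart, at chr4:153516205-153516264 and chr4:153510285-153510344 of rn4, under different transcript accessions. Cxcr7, the scavenging Cxcl12 receptor now named Ackr3, had means of 0.94 ± 0.20 in SHR, 0.76 ± 0.52 in SHRSP, 0.40 ± 0.44 in 2K1C, 1.06 ± 0.33 in 1K1C and 0.53 ± 0.39 in untreated WKY. Its difference from untreated WKY was the second largest positive one in 1K1C, 0.53 ± 0.27 (limma adjusted p = 0.58).

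Cxcr4 itself was at -3.23, -3.14, -3.88 and -0.31 in SHRSP and -3.47, -3.29, -3.58 and -0.36 in 2K1C, against -0.91, -2.81, -2.72 and -2.76 in untreated WKY. It was high on 1 array of each of these groups. Cxcl16, a membrane-bound ligand of CXCR6, had its largest differences from untreated WKY in SHRSP, 0.54 ± 0.25, and in SHR, 0.42 ± 0.25, neither called (limma adjusted p = 0.287 and 0.491). Ccl9, a CCR1 ligand of rodents, was at -5.19, -6.00, -5.71 and -5.25 in SHR, with 2 arrays above background, against -4.52, -4.27, -5.15 and -3.99 in untreated WKY, without overlap but uncalled (difference -1.05 ± 0.46, limma adjusted p = 0.311). Ccl27, a skin chemokine, and Ccr9, the receptor for Ccl25, differed from untreated WKY by at most 0.63 in size in any group, with no call.

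Among genes that work with chemokines, few passed the test. Of 12 measured inducers of chemokine genes, 11 were higher than in untreated WKY in SHRSP (median 0.29) and 11 in 2K1C (median 0.44). In 1K1C 8 were higher (median 0.03). The mean level of that list was 0.26 on SHRSP replicate 4, against -1.07 to -0.88 on the other SHRSP arrays. On 2K1C replicate 4 it was 0.71, against -1.02 to -0.6 on the other 2K1C arrays. In SHR 6 genes of the list were higher and 6 lower than in untreated WKY. Only Nfkbia was called there, beside 1.72% of all probes. Nfkbia, the inhibitor of NF-kB that is itself an NF-kB target, was at 2.36 in SHR against 1.03 in untreated WKY (difference 1.33 ± 0.31, limma adjusted p = 0.0348). Irf1, Tnf and Il1b were also in that list, while Ifng, Il6 and Il1a did not pass the detection rule. All 14 measured interferon response genes were higher in SHRSP than in SHR (median 0.28, against -0.01 over all probes), and all 14 were higher in SHRSP than in untreated WKY (median 0.29, against 0). None of them was called in any comparison. Cxcl9 was lower than in untreated WKY both in SHRSP, where all 14 were higher, and in SHR. In SHR against untreated WKY 9 of these 14 were lower, with a median of -0.01.

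No probe was called in any of the 6 comparisons among 5 other chemokines and receptors, 4 atypical receptors, 11 receptor signalling genes and 9 genes for chemokine processing and display. The 4 atypical receptors include Ackr3, whose probe is that of the member Cxcr7. Of the 9 processing and display genes, which cleave chemokines or build the heparan sulfate that holds them, all 9 were higher in SHRSP than in untreated WKY (median 0.42, against 0 over all probes). In 2K1C 7 were higher (median 0.42, against 0.04 over all probes), in SHR 8 (median 0.2, against 0.02) and in 1K1C 7 (median 0.17, against 0.1). The 5 other chemokines and receptors had median differences from untreated WKY of -0.12 in SHR, 0.04 in SHRSP, 0.24 in 2K1C and 0.15 in 1K1C. The 11 signalling genes had medians between -0.05 and 0.21 in the same comparisons, and the 4 atypical receptors between 0.05 and 0.58.

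Of the cell marker lists, 2 nerve markers, Prph and Gap43, were called lower in SHR and SHRSP than in untreated WKY, the matrix gene Dpt was called higher in both, and the brown adipocyte marker Ppargc1a was called lower in SHR. No macrophage, lymphocyte, dendritic cell, neutrophil, mast cell, endothelial, smooth muscle, white adipocyte, mesothelial, pancreas or erythroid marker was called in any comparison. All 8 smooth muscle markers were lower in 1K1C than in untreated WKY, with a median of -1.01, and lower in 1K1C than in 2K1C, with a median of -1.57. The mean level of that list was 0.65 on 1K1C replicate 2 and 2.62, 3.62 and 3.65 on the other 1K1C arrays. It was 3.12 to 4.12 in untreated WKY and 3.13 to 4.7 in 2K1C. All 8 white adipocyte markers were higher in 1K1C than in 2K1C, with a median of 1.42. Beside the Cxcl9, Ccl12 and Ccl11 calls, all 6 measured exocrine pancreas and gut markers were higher in SHR and in SHRSP than in untreated WKY (medians 1.84 and 1.11). The gut genes Vil1 and Fabp2 of that list did not pass the detection rule. Its mean level overlapped widely, at -1.19 to 0.73 in SHR, -5.33 to 1.75 in SHRSP and -6.19 to 0.98 in untreated WKY. In SHR and SHRSP all 5 erythroid markers were lower than in untreated WKY (medians -1.22 and -0.78). All 5 brown adipocyte markers were lower there as well (medians -1.3 and -1.29). All 5 brown adipocyte markers were lower in 2K1C too (median -1.22). Their mean level was 3.18 on untreated WKY replicate 1 and -1.3, -2.02 and -2.57 on the other untreated WKY arrays. The part of these tissues in the chemokine values was not tested.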

How the data were processed

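Total RNA of whole mesenteric artery was labelled with Cy3 and hybridised to 1-colour Agilent arrays, per the labels. The deposited intensity of each spot is linear and background-subtracted, per the file headers; the submitters' processing notes name Agilent Feature Extraction 10.7.3.1. The deposited value table held the same intensity (largest relative difference 0). From that deposited intensity, each probe's log2 level was computed here relative to the 75th percentile of non-control spots on its array (signal 574 to 1190). Outlier spots (301 to 684 an array) and 4259 control spots were left out, and spots of a probe were averaged. Between 66.5% and 71.7% of spots were well above background, and the number of arrays limits the precision. All 20 arrays entered 1 limma fit (limma 3.58.1, R 4.3.3), two-sided, with Benjamini-Hochberg adjustment over 18899 probes; the steps were tested on simulated data. Probe positions on rn4 come from the scanner files.

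Members and lists were chosen with earlier results of these data known. By rule, folds and tests were given for members called anywhere and, in each comparison, for the 2 largest differences each way among members well above background on all arrays of the higher group. Ccl2, Ccl7, Ccl9, Cxcl1 and the other members given with array values were chosen after their values were seen. The single values of 1 member and of 1 list gene are not reported here, though counts and medians include them. Alternatives changed the scaling, background correction, filter, spots, probes per gene, arrays, weights and blocks.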

Additional observations from a re-analysis of the deposited data

Results flagged for a closer look

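In 12 of 150 tests of a member in a group of 4, the highest or lowest array lay apart from the other 3 by Dixon's test at the 95% level; chance alone gives about 1 in 20. SHRSP replicate 4 was apart for Ccl19 (3.80, others 0.81 to 1.17), Ccl22 (-1.64, others -4.61 to -4.43) and Cxcl13 (0.73, others -4.91 to -4.57). 2K1C replicate 4 was apart for Ccl21 (4.80, others 2.17 to 2.57), Ccr9 (1.27, others -0.55 to -0.47) and Cxcr4 (-0.36, others -3.58 to -3.29). SHR replicate 1 was apart for both Ccl6 probes, A_43_P16707 (2.64, others 0.84 to 0.99) and A_64_P095920 (1.75, others -0.27 to 0.06). Untreated WKY replicate 1 was apart for Cxcl1 (-4.54, others -3.12 to -2.93) and Cxcr4 (-0.91, others -2.81 to -2.72). Cxcl16 was low on 2K1C replicate 3 (0.76, others 1.01 to 1.05), and Cxcl9 was low on SHRSP replicate 3 (-3.48, others -2.61 to -2.47).

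Among probes that did not pass the detection rule, 8 were well above background on some arrays of the other groups and on none of untreated WKY. These were Ccl1 and Cxcr5 on 1 array each, Ccr7 and both Ccl20 probes (A_43_P11985 and A_64_P157743) on 2 arrays each, and Cxcl17, Cxcl2 and Cxcr6 on 3 arrays each. 2K1C replicate 4 was among the arrays for each of these 8 probes.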

How the results depend on the processing

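The count of called members depended on the setting. In SHR against untreated WKY it was 1 with normexp background correction and quantile normalization together, 1 with the deposited values without scaling, 1 with probes well above background on all 20 arrays (Ccl12 then was not tested), 13 with array weights (8521 of all probes) and 0 with only those 2 groups. In SHRSP against untreated WKY it was 0 with the deposited values without scaling, 1 with no filter on dim probes, 10 with array weights (6184 of all probes), 0 with only those 2 groups and 1 without SHRSP replicate 4 and 2K1C replicate 4. Against untreated WKY, array weights gave 9 in 2K1C and 1 in 1K1C (5326 and 567 of all probes); they also gave 3 in SHRSP against SHR (969 of all probes) and 15 in the F test (10350 of all probes); the cause of these changes was not tested. With single arrays left out, the count ran from 0 to 3 in SHR, 1 to 2 in SHRSP and 0 to 2 in 2K1C against untreated WKY, 0 to 1 in 1K1C against 2K1C and 2 to 4 in the F test, and was 0 each time in 1K1C against untreated WKY and in SHRSP against SHR.

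The median member difference in SHRSP against untreated WKY moved to -0.60 without SHRSP replicate 4, 2K1C replicate 4 and untreated WKY replicate 1, which also turned Ccl3 in 2K1C against untreated WKY to -0.05. With single arrays left out, Ccl19 in 1K1C against untreated WKY ran from -0.11 (without untreated WKY replicate 3) to 1.24, and Ccl11 in SHRSP against SHR from -0.53 to 0.08 (without SHR replicate 3). Of 520 recomputed member differences, 476 kept direction and side of the threshold, 24 lost the call, 17 gained it and 3 changed sign. A replicate block left the counts at 2 in SHR and 2 in SHRSP against untreated WKY and 0 in the other comparisons. Same-numbered arrays of different groups had a mean correlation of 0 (-0.56 to 0.63, over 0.1 in 14 of 40 pairs). Different-numbered arrays also had a mean of 0 (-0.74 to 0.79, over 0.1 in 39 of 120 pairs). No pairing by number was seen, but values spread this widely cannot exclude it. A slide block left 0 in both comparisons within a slide. Each group lay on a single slide, so such a block could not change these differences and tests nothing about the slides. Signal near background limits Ccl12 in SHR.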
